A study of Mus musculus with 12 samples.

Results

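The Slc25 family of mitochondrial carriers was described in bulk RNA-seq libraries of epithelial cells from the mouse jejunum. Its members were taken as every gene listed under a symbol of the form Slc25a followed by a number that reached 1 TPM in at least 3 of the 12 libraries. TPM is a transcript abundance per length that sums to a fixed total over a library's genes. The table listed 47 such symbols among 55421 genes, and 37 met the rule, out of 14510 genes that met it in all. The libraries formed 4 groups of 3: the control genotype (Ctrl) at day 1 and at day 3, and the genotype labelled as a knockout of Fzd5 (Fzd5KO) at day 1 and at day 3. Fzd5 encodes Frizzled 5, a Wnt receptor. The labels give neither the event from which the days were counted, nor the age and strain of the mice, nor the removed part of the gene, nor any promoter or recombinase. Nor do they state whether the replicates are different mice, so each p-value reflects library-to-library spread alone, which could be technical.

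Slc25 proteins carry metabolites, nucleotides, cofactors and ions between the cytosol and the mitochondrial matrix, nearly all of them across the inner membrane. Most exchange one substrate for another, such as cytosolic ADP for matrix ATP, and so link respiration, fatty acid oxidation, amino acid metabolism and heme synthesis to the rest of the cell. Enterocytes of the small intestine oxidise glutamine and fatty acids and make citrulline, and each of these routes passes through carriers of this family.

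Of the 37 members, 35 reached 1 TPM in every library. Slc25a23 and Slc25a53 lay just inside the rule, with 7 libraries each at 1 TPM or more. Just outside it were Slc25a29 (0.27 to 1.51 TPM, 2 libraries at 1 TPM), Slc25a27 (0.21 to 1.22 TPM, 1 library) and Slc25a2 (0.35 to 1.18 TPM, 1 library). Of the 10 symbols below the rule, Slc25a18, Slc25a41 and Slc25a54 were listed at 0 in every library. In the annotation used here (GENCODE release M21, GRCm38, the assembly also named mm10), the 37 members lie on 18 chromosomes, 34 on autosomes and 3 on X.

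Changes are differences of log2(TPM + 1) with their SE, a scale that shrinks the changes of weakly expressed genes. A gene is called where its Benjamini-Hochberg adjusted p over all 14510 genes tested (limma) is under 0.05. Levels are mean TPM ± SD of n = 3 libraries. Fzd5 was lower in Fzd5KO on both days (46.6 ± 2.94 against 32.7 ± 0.694 TPM at day 1, and 64.8 ± 3.95 against 38.6 ± 0.969 TPM at day 3), which goes in the direction of the labels. Within groups the libraries correlated at r = 0.976 to 0.988 across the tested genes, and the lowest value was within Ctrl day 1. The median gene lay at −0.14 in Fzd5KO on both days. Quantile normalization and median-of-ratios scaling moved that median to between −0.04 and 0.00, so small changes are relative to the scale. Depth is unknown with TPM values, so no counting error can be given.

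At day 3 the mitochondrial carriers were mostly higher in Fzd5KO, the abundant ones most often. Of the 37 members, 19 were called higher (51.4%, against 24.3% of all tested genes) and 6 lower (16.2%, against 38.5%), and their median change was 0.23 where that of all genes was −0.14. Of the 12 members with a mean of at least 50 TPM, 11 were called higher and 1 lower. Of the 25 under 50 TPM, 8 were called higher and 5 lower. The shares of all genes at these levels were not computed. The groups did not overlap for 19 members that were higher (25.7% of all genes) and 5 that were lower (40.8%). The summed TPM of the 37 members was 1939 ± 70.3 in Ctrl and 2643 ± 48.5 in Fzd5KO, a ratio of 1.36. At day 1, 10 members were called lower (27.0%, against 22.8% of all genes) and 1 higher (2.7%, against 2.13%), and their median change was −0.11 where that of all genes was −0.14. The groups did not overlap for 18 members that were lower (38.9% of all genes) and 1 that was higher (4.52%), and the family sum was 2113 ± 57.5 in Ctrl and 1950 ± 16.8 in Fzd5KO. The day 1 shares and median lie near those of all genes.

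**Figure D1:**
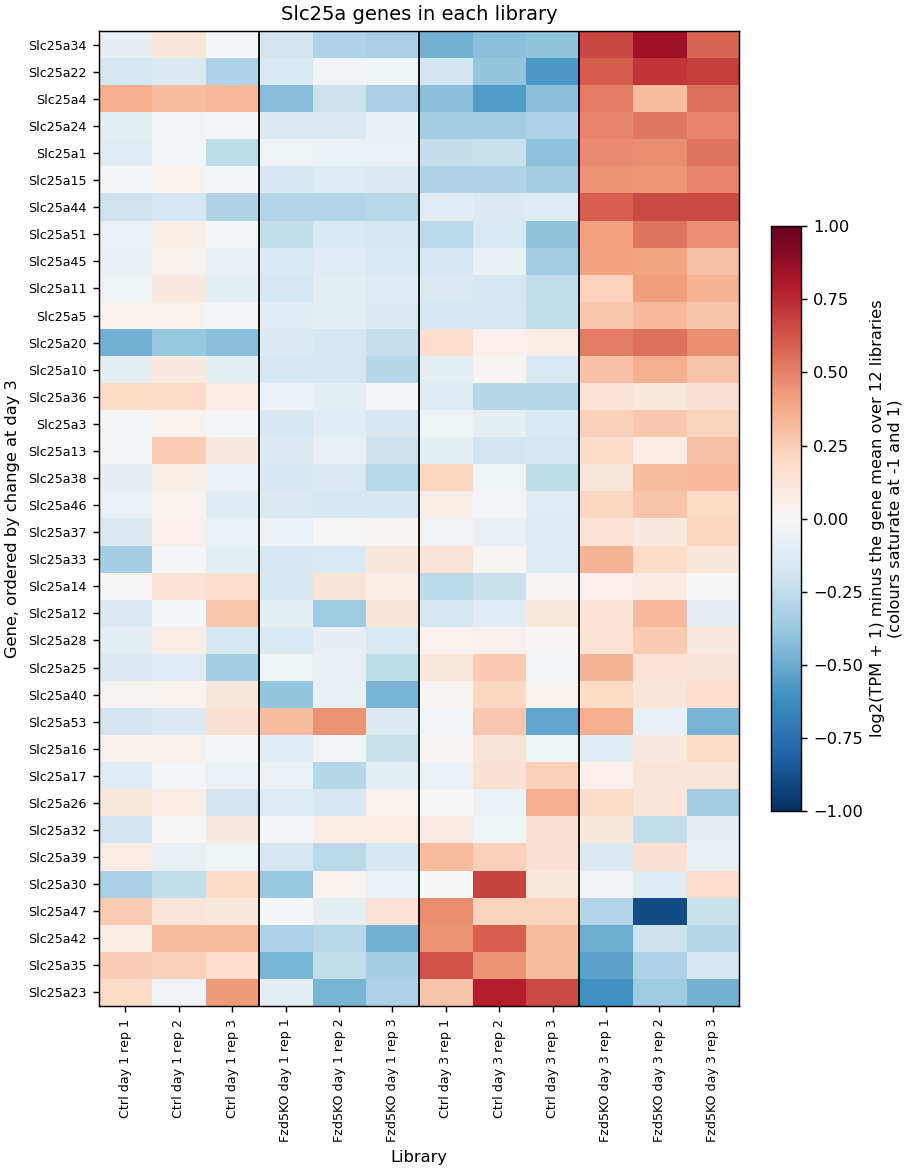
Each row is 1 of 36 Slc25a genes and each column 1 of the 12 libraries, with colour giving log2(TPM + 1) minus the mean of the gene over all libraries. Rows are ordered by the change at day 3, and the 3 Fzd5KO day 3 columns are red for most rows and blue for the lowest 4.

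The carriers that serve oxidative phosphorylation came first in level. Slc25a5 (ENSMUSG00000016319; chromosome X, 36795651 to 36798807, plus strand), the main ADP/ATP carrier of proliferating and epithelial cells, ranked 101st of the 14510 tested genes by mean TPM and alone gave 33.7 to 36.8% of the family sum. Its TPM was 775, 774 and 745 in Ctrl day 1, 702, 705 and 685 in Fzd5KO day 1, 668, 671 and 636 in Ctrl day 3, and 913, 945 and 919 in Fzd5KO day 3. The Fzd5KO day 3 libraries were the highest of all and overlapped no other group. The change at day 3 was 0.49 ± 0.03 (adjusted p = 1.11e-07), and at day 1 it was −0.13 ± 0.03 (adjusted p = 0.012). The day 1 change turned positive under quantile normalization (0.04) and median-of-ratios scaling (0.03). A share of 33.8% of the 50-base words of the Slc25a5 transcripts also occurs in other annotated transcripts, mostly processed copies such as Gm5560, so its level is uncertain to the extent that counting split those reads.

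Slc25a3, which imports the phosphate needed to make ATP, ranked 269th. Its TPM was 345, 359 and 345 in Ctrl day 1 and 314, 325 and 314 in Fzd5KO day 1. At day 3 it was 338, 328 and 315 in Ctrl and 415, 423 and 409 in Fzd5KO. Ctrl and Fzd5KO overlapped on neither day, with the order reversed between the days. The changes were −0.14 ± 0.03 at day 1 (adjusted p = 0.0131; 0.03 with median-of-ratios scaling, and adjusted p = 0.0526 without Ctrl day 1 replicate 2) and 0.35 ± 0.03 at day 3 (adjusted p = 3.69e-06).

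Slc25a4 encodes the ADP/ATP carrier that predominates in heart and skeletal muscle and is a minor form in epithelium. Its TPM was 7.57, 7.25 and 7.33 in Ctrl day 1 and 3.95, 4.74 and 4.32 in Fzd5KO day 1. At day 3 Ctrl had 4, 3.52 and 4, and Fzd5KO had 8.51, 7.25 and 8.74. Ctrl day 1 and Fzd5KO day 3 were thus the high groups, Fzd5KO day 1 and Ctrl day 3 the low ones, and the genotypes overlapped on neither day. Slc25a4 had the largest fall of the family at day 1 (−0.65 ± 0.09, adjusted p = 0.000445, a ratio of 0.587) and the third largest rise at day 3 (0.92 ± 0.09, adjusted p = 2.67e-06, a ratio of 2.13). The TPM ratio of Slc25a5 to Slc25a4 was 102 to 107 in Ctrl day 1, 149 to 178 in Fzd5KO day 1, 159 to 191 in Ctrl day 3 and 105 to 130 in Fzd5KO day 3. All 3 tested members of this role were lower at day 1 and higher at day 3 on the TPM scale, and the fourth, Slc25a31, was at most 0.04 TPM.

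The 3 tested ATP-Mg/phosphate carriers, calcium-regulated proteins that set the adenine nucleotide content of the matrix, went different ways at day 3. Slc25a24 had 54.4, 57.3 and 57.7 TPM in Ctrl day 1 and 52.6, 52.5 and 55.4 in Fzd5KO day 1. At day 3 it had 45.6, 45.6 and 47.0 TPM in Ctrl and 82.3, 84.7 and 82.2 in Fzd5KO. The day 1 groups overlapped and the day 3 groups lay far apart (0.84 ± 0.04, adjusted p = 5.73e-09). Slc25a23 was at 1.56, 1.18 and 2.01 TPM in Ctrl day 1 and 1.10, 0.62 and 0.80 in Fzd5KO day 1, and at 1.73, 2.85 and 2.54 against 0.46, 0.75 and 0.61 TPM at day 3. It had the largest fall of the family at day 3 (−1.06 ± 0.17, adjusted p = 0.000202), while its day 1 change of −0.48 ± 0.17 was not called (adjusted p = 0.0564) although the groups did not overlap. Of its Fzd5KO libraries only day 1 replicate 1 reached 1 TPM, so Slc25a23 met the membership rule through Ctrl, where it was higher. Its fall is therefore not independent of that rule. Slc25a25 was not called on either day (0.07 ± 0.09 and 0.08 ± 0.09).

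**Figure D2:**
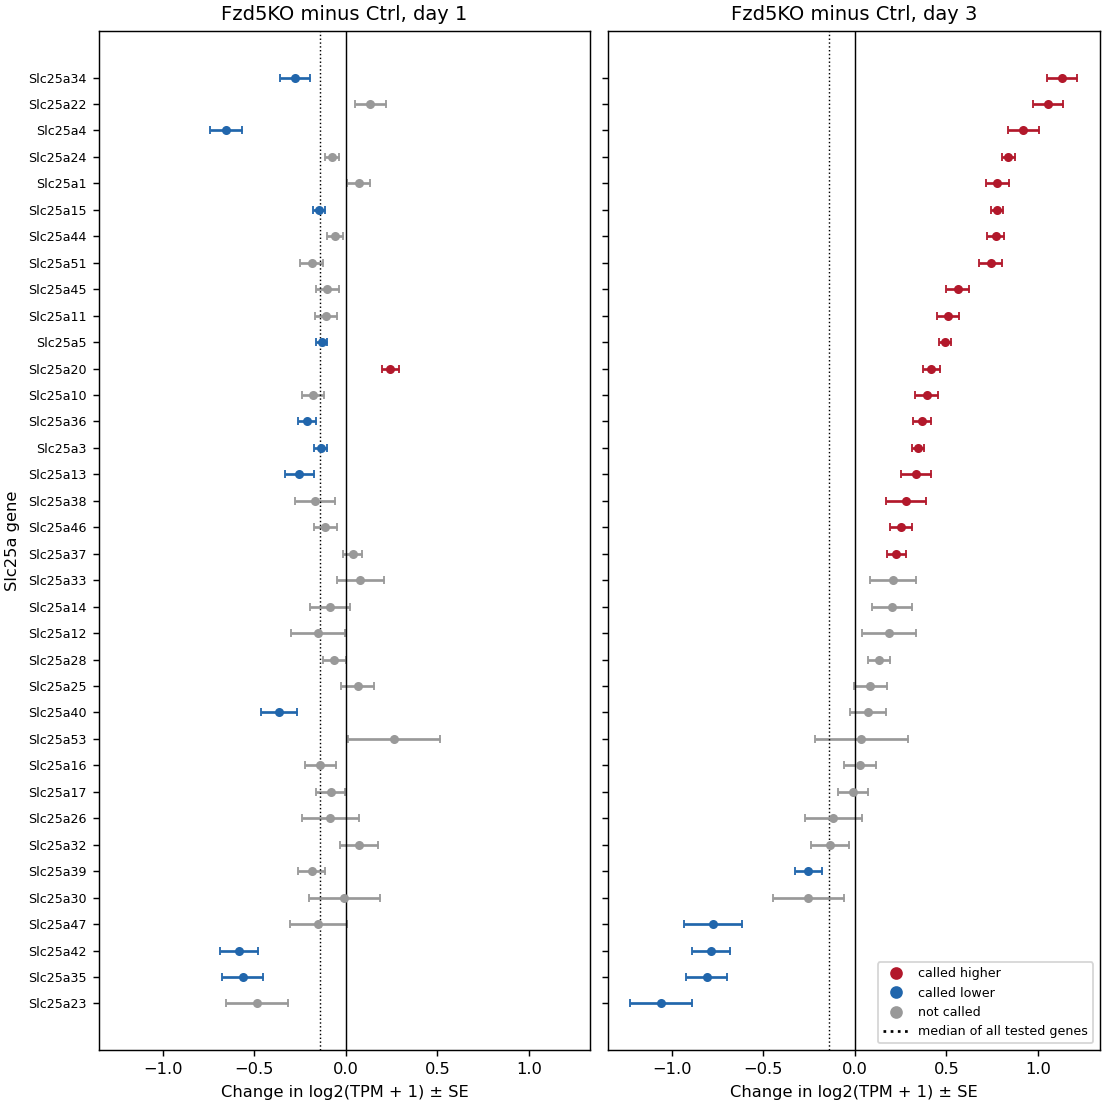
Points give the change in log2(TPM + 1) between Fzd5KO and Ctrl for 36 of the genes at day 1 (left) and day 3 (right), bars the SE, red and blue points the called genes and the dotted line the median of all tested genes (−0.14 on both days). At day 3, 19 points are red, up to 1.13 for Slc25a34, and 5 are blue, down to −1.06 for Slc25a23.

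The citrate, dicarboxylate and oxoacid carriers rose together at day 3, with 3 of 3 tested members called higher (against 24.3% of all genes). Slc25a1, which exports citrate for fatty acid and sterol synthesis, had 78.6, 83.4 and 71.1 TPM in Ctrl day 1, 82.1, 81.1 and 81.1 in Fzd5KO day 1, 72.3, 72.8 and 63.9 in Ctrl day 3, and 118, 118 and 124 in Fzd5KO day 3. The genotypes overlapped at day 1 (0.07 ± 0.06, adjusted p = 0.424, but called at 0.18 to 0.23 under the 3 other scalings) and were apart at day 3 (0.78 ± 0.06, adjusted p = 6.79e-07). Slc25a11, the oxoglutarate/malate exchanger of the malate-aspartate shuttle, rose from 56.0 ± 2.12 to 80.2 ± 5.32 TPM at day 3 (0.51 ± 0.06, adjusted p = 2.04e-05). Slc25a10, the dicarboxylate carrier, had 80.0, 86.6 and 76.8 TPM in Ctrl and 105, 110 and 105 in Fzd5KO at day 3 (0.39 ± 0.06, adjusted p = 0.000175). At day 1 its libraries were at 80.5, 91.6 and 80.1 against 75.9, 76.4 and 70.1 TPM, apart but not called (adjusted p = 0.0542). That change was called with the replicate number as a block (adjusted p = 0.0134), with at least 5 TPM required in 3 libraries (adjusted p = 0.0442), and without replicate 2 or 3 of Ctrl day 3 (adjusted p = 0.0466 and 0.0499).

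Among the aspartate and glutamate carriers, Slc25a22 stood out. It imports glutamate together with a proton, and its TPM was 54.0, 55.1 and 49.0 in Ctrl day 1, 54.9, 59.7 and 59.1 in Fzd5KO day 1, 53.3, 46.5 and 40.6 in Ctrl day 3, and 93.5, 101 and 98.9 in Fzd5KO day 3. Day 1 groups overlapped, and every Fzd5KO day 3 library was above every other library (1.05 ± 0.08, adjusted p = 7.59e-07, a ratio of 2.09). Slc25a13 and Slc25a12 are the paired aspartate/glutamate exchangers of the malate-aspartate shuttle. Slc25a13 had 10.5, 12.9 and 11.5 TPM in Ctrl day 1 and 9.56, 10.1 and 9.08 in Fzd5KO day 1, and 9.97, 9.26 and 9.31 in Ctrl day 3 against 12.2, 11.3 and 13.3 in Fzd5KO day 3. It was called higher at day 3 (0.34 ± 0.08, adjusted p = 0.00364) and lower at day 1 (−0.25 ± 0.08, adjusted p = 0.0418). The day 1 call ended under all 3 other scalings, with the replicate number as a block (adjusted p = 0.0672) and without any 1 of 8 libraries (each Fzd5KO day 1 library, Fzd5KO day 3 replicate 1, and replicates 2 and 3 of both Ctrl groups; adjusted p = 0.0504 to 0.149). The Slc25a13 day 1 call also ended with no filter on low values (adjusted p = 0.0824) and with the day 1 libraries alone (adjusted p = 0.0785). Slc25a12 overlapped between genotypes on both days, from 8.75 to 14.2 TPM at day 1 and from 10.2 to 14.7 TPM at day 3, and was not called (adjusted p = 0.476 and 0.294).

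Slc25a15 exchanges ornithine and citrulline across the inner membrane, a step of intestinal citrulline synthesis. Its libraries gave 73.4, 76.3 and 73.7 TPM in Ctrl day 1 and 66.3, 67.9 and 67.3 in Fzd5KO day 1. At day 3 they gave 60.1, 60.2 and 58.3 in Ctrl and 102, 101 and 105 in Fzd5KO. No groups overlapped, and the replicates lay close to each other. The day 3 rise was 0.78 ± 0.03 (adjusted p = 2.82e-09), and the day 1 change of −0.15 ± 0.03 (adjusted p = 0.00737) was 0.02 with median-of-ratios scaling.

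Slc25a20, the carnitine-acylcarnitine exchanger that brings fatty acids in for oxidation, was called higher on both days. It had 30.3, 32.6 and 31.7 TPM in Ctrl day 1, 38.8, 37.5 and 36.2 in Fzd5KO day 1, 47.9, 44.1 and 44.6 in Ctrl day 3, and 61.3, 62.9 and 59.3 in Fzd5KO day 3. The 4 groups formed an order with no overlap. The changes were 0.24 ± 0.05 at day 1 (adjusted p = 0.00424) and 0.42 ± 0.05 at day 3 (adjusted p = 1.2e-05), and both calls held under all scalings tried.

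**Figure D3:**
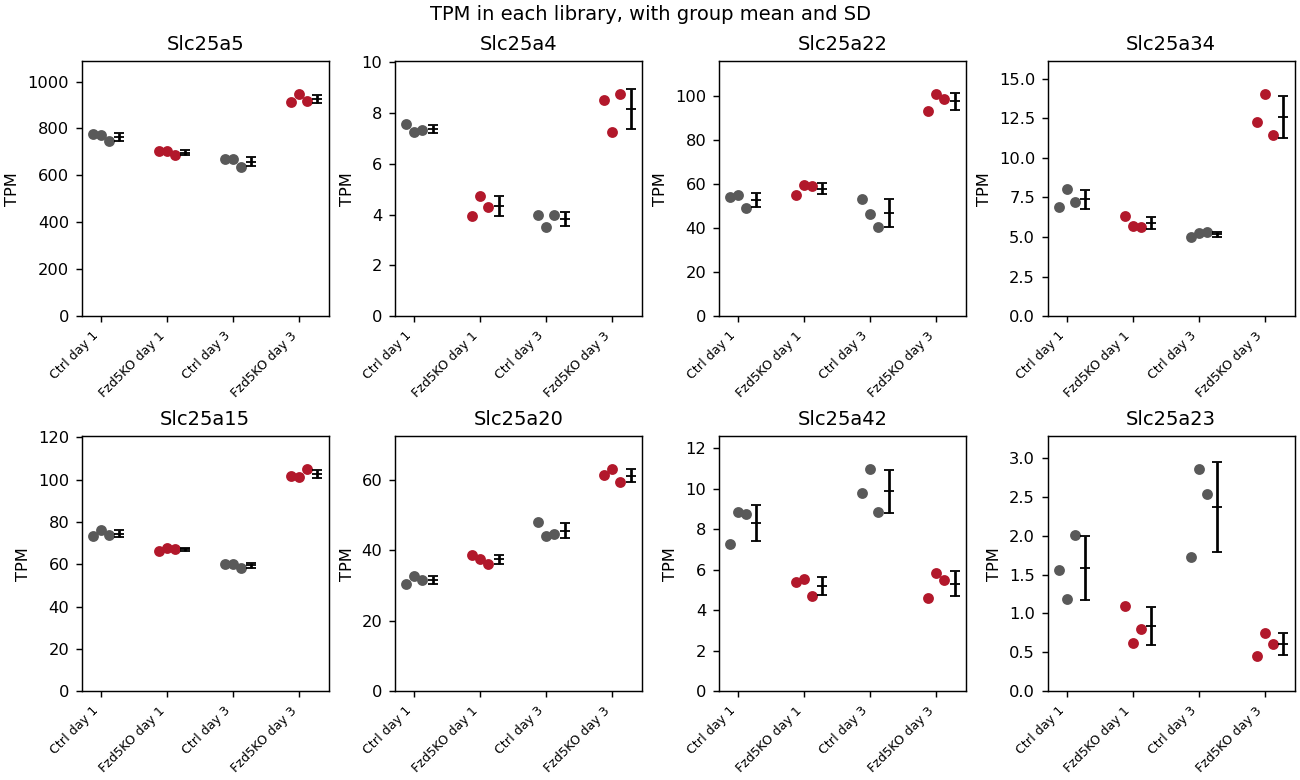
TPM of 8 carriers in each library (points, Ctrl grey and Fzd5KO red), with the group mean and SD as black bars beside them. Slc25a5, Slc25a22, Slc25a34 and Slc25a15 are highest in Fzd5KO day 3, Slc25a42 and Slc25a23 are lower in Fzd5KO than in Ctrl on both days, and Slc25a4 is high in Ctrl day 1 and Fzd5KO day 3.

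Of the 8 tested carriers of other amino acids, glutathione and carnitine, 5 were called higher and 2 lower at day 3 (against 24.3% and 38.5% of all genes). Slc25a44, which takes up branched-chain amino acids, had 19.2, 18.8 and 18.9 TPM in Ctrl and 32.0, 33.6 and 33.6 in Fzd5KO at day 3 (0.77 ± 0.04, adjusted p = 5.58e-08), and 17.9, 18.4 and 16.7 against 16.9, 16.8 and 17.0 at day 1, where the groups overlapped. Slc25a45 had 75.7, 80.5 and 66.6 TPM against 113, 112 and 105 at day 3 (0.56 ± 0.06, adjusted p = 1.34e-05), with no overlap. Slc25a38, the glycine carrier that feeds heme synthesis, was called at 0.28 ± 0.11 (adjusted p = 0.0432) with overlapping libraries (7.08 to 10.2 against 9.44 to 11.1 TPM). Its call ended with rescaled TPM, with no filter on low values, with the replicate number as a block, with a fit to the 6 day 3 libraries alone, and when any 1 of 8 libraries was left out (replicates 1 and 2 of Fzd5KO day 1, 2 and 3 of Fzd5KO day 3, 1 and 3 of Ctrl day 1, and 2 and 3 of Ctrl day 3).

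Slc25a39 and Slc25a40, both tied to glutathione import into mitochondria, did not follow the risers. Slc25a39, the sixth most abundant member, had 104, 98.8 and 93.1 TPM in Ctrl and 75.7, 93.2 and 79.5 in Fzd5KO at day 3 (−0.26 ± 0.07, adjusted p = 0.011). The groups overlapped, and the call ended with median-of-ratios scaling (adjusted p = 0.178). Slc25a40 was unlike it at day 3, with a change of 0.07 ± 0.10 that was not called. At day 1 it had 6.67, 6.72 and 7.15 TPM in Ctrl and 4.78, 6.18 and 4.47 in Fzd5KO (−0.36 ± 0.10, adjusted p = 0.0216), a call lost under the 3 other scalings and without any 1 of 4 day 1 libraries (Fzd5KO replicates 1 and 3 and Ctrl replicates 2 and 3; adjusted p = 0.053 to 0.0791). The Slc25a40 day 1 call also ended with the day 1 libraries alone (adjusted p = 0.0643). Slc25a47, best known from liver, fell at day 3 from 7.79, 6.42 and 6.41 to 4.18, 2.42 and 4.44 TPM (−0.78 ± 0.16, adjusted p = 0.00111), with no overlap.

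The nucleotide and cofactor carriers were divided, with 2 of 9 called higher and 2 lower at day 3 (against 24.3% and 38.5% of all genes). Slc25a51, which brings NAD into the matrix, had 47.9, 51.9 and 43.6 TPM in Ctrl and 77.2, 84.5 and 79.8 in Fzd5KO at day 3 (0.74 ± 0.06, adjusted p = 1.23e-06), with no overlap. Slc25a36, a pyrimidine nucleotide carrier, rose from 64.2 ± 4.17 to 83.1 ± 1.33 TPM at day 3 (0.37 ± 0.05), and fell at day 1 from 87.0, 86.4 and 79.8 to 72.5, 70.7 and 74.6 TPM (−0.21 ± 0.05, adjusted p = 0.011; adjusted p = 0.174 to 0.47 under the 3 other scalings).

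Slc25a42, a coenzyme A carrier, fell on both days. It had 7.30, 8.85 and 8.78 TPM in Ctrl and 5.39, 5.54 and 4.69 in Fzd5KO at day 1 (−0.58 ± 0.10, adjusted p = 0.0031), and 9.81, 10.96 and 8.87 against 4.63, 5.83 and 5.49 at day 3 (−0.79 ± 0.10, adjusted p = 5.43e-05). Neither day had an overlap, and both calls held under the scalings tried. The folate carrier Slc25a32, the S-adenosylmethionine carrier Slc25a26, Slc25a16, Slc25a17 and Slc25a33 were called on neither day.

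The iron carriers moved little. Slc25a37, which supplies iron for heme, had 41.6, 40.6 and 39.0 TPM in Ctrl and 47.2, 45.7 and 49.4 in Fzd5KO at day 3, without overlap (0.23 ± 0.05, adjusted p = 0.00297). At day 1 it overlapped (38.4, 44.1 and 40.8 against 40.9, 42.7 and 43.1 TPM) and was not called, at 0.04 ± 0.05. Slc25a28, the related carrier of most other tissues, was not called on either day, and of the uncoupling protein relatives neither Slc25a14 nor Slc25a30 was called.

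Among members of unsettled role, Slc25a34 and Slc25a35 are close in sequence and moved oppositely at day 3. Slc25a34 had 4.99, 5.24 and 5.31 TPM in Ctrl and 12.2, 14.01 and 11.5 in Fzd5KO, the largest rise of the family (1.13 ± 0.08, adjusted p = 3.84e-07, a ratio of 2.43). Slc25a35 had 6.23, 5.39 and 4.82 TPM in Ctrl and 2.22, 2.76 and 3.13 in Fzd5KO (−0.81 ± 0.11, adjusted p = 6.59e-05), with no overlap for either gene.

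At day 1 both were lower in Fzd5KO. Slc25a35 had 4.55, 4.52 and 4.25 against 2.41, 2.94 and 2.71 TPM (−0.56 ± 0.11, adjusted p = 0.00484), and Slc25a34 had 6.87, 8.05 and 7.20 against 6.33, 5.71 and 5.66 (−0.28 ± 0.08, adjusted p = 0.0322). The Slc25a34 day 1 call ended under the 3 other scalings and without any 1 of 4 day 1 libraries (replicates 2 and 3 of each genotype; adjusted p = 0.0571 to 0.116). That Slc25a34 call also ended with no filter on low values (adjusted p = 0.064) and with the day 1 libraries alone (adjusted p = 0.0568). Slc25a35 shares 1151 exonic bases with Rangrf on the opposite strand. No source used here states whether counting used strand. Its values are therefore uncertain, as are those of the other 9 members with such an overlap, among them Slc25a10, Slc25a11, Slc25a23 and Slc25a37. Slc25a46, an outer membrane member tied to mitochondrial shape, rose at day 3 (0.25 ± 0.06, adjusted p = 0.00348), and Slc25a53 was not called.

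Of the family members under other symbols, Ucp2, an uncoupling protein at 158 ± 20.5 TPM in Ctrl and 169 ± 8.88 in Fzd5KO at day 3, was not called on either day, and Mtch1, an outer membrane member, was called lower on both (−0.27 and −0.42).

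The day 1 counts depend on the scale. With quantile normalization or median-of-ratios scaling 4 members were called higher at day 1 (Slc25a20, Slc25a1, Slc25a22 and Slc25a37) and 3 lower (Slc25a4, Slc25a35 and Slc25a42). With TPM rescaled without the most abundant genes 2 were higher (Slc25a20 and Slc25a1) and the same 3 lower. The calls of Slc25a20, Slc25a4, Slc25a35 and Slc25a42 were the ones that held under every scaling. At day 3 the same scalings gave 18 to 23 members higher and 5 or 6 lower.

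Sequence upstream of the members was examined because 19 of them rose together at day 3. RefSeq promoter windows (GRCm38.p6; 250 bases before to 50 after each annotated start) matched 29 of the 37 members by symbol. The 250 bases before the start are shown 5′ to 3′ on the strand of the gene, with matches to the motifs searched in capitals, for the most abundant member (Slc25a5, chrX:36795347-36795596, plus strand), the citrate carrier (Slc25a1, chr16:17928220-17928469, minus strand), the largest riser (Slc25a34, chr4:141623835-141624084, minus strand) and the largest faller (Slc25a23, chr17:57059864-57060113, minus strand, before 1 of its annotated starts).
Slc25a5: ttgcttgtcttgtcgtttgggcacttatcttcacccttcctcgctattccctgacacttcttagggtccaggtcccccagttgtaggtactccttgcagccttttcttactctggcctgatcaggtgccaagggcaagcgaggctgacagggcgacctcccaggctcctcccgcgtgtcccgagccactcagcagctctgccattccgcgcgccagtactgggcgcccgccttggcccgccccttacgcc
Slc25a1: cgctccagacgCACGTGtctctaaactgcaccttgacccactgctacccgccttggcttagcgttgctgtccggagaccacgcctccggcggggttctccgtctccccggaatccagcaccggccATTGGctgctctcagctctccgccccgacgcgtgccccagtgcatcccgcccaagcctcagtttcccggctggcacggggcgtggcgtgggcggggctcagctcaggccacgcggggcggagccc
Slc25a34: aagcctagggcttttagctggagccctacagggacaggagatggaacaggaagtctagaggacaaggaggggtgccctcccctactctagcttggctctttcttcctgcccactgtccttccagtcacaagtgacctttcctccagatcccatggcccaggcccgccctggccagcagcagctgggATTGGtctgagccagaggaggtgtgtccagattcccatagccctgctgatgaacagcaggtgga
Slc25a23: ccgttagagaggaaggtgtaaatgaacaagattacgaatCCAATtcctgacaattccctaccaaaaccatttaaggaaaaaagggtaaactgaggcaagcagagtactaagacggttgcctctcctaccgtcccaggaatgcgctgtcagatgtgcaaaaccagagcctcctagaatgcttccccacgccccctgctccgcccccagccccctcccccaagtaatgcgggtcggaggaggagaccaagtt
The Slc25a1 window holds an E-box and a CCAAT box read on the opposite strand, that of Slc25a34 a CCAAT box on the opposite strand and that of Slc25a23 a CCAAT box on its own strand. Slc25a5 holds no match in these bases.

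The motifs were searched on both strands of the 300 bases, by exact letters, and no motif lies within another. The E-box CACGTG, bound by Myc and related factors, was in 6 of 29 member windows (20.7%, against 8.09% of 27025 genes), those of Slc25a1, Slc25a13, Slc25a14, Slc25a15, Slc25a33 and Slc25a36. The ETS core CCGGAAG was also in 6 of 29 (20.7%, against 9.93%), and CCAAT in 17 of 29 (58.6%, against 41.1%). CCAAT occurred in 8 of 15 members called higher at day 3, in 3 of 4 called lower and in 6 of 10 not called. The TCF/LEF letters ATCAAAG, recognised by the factors at the end of canonical Wnt signalling, were in 2 of 29 (Slc25a22 and Slc25a28; 6.9%, against 4.29%). The palindromic NRF1 site was in 0 of 29 (1.07% of all genes) and the YY1 core AAGATGGC in 1 of 29 (3.19%). These are matches of letters in a window and do not measure binding. The 27025 genes are all with a window, whether or not expressed here, while the members passed the 1 TPM rule. A gene counts with a match in any of its windows, and the members had 38 windows for 29 genes. All genes had 32851 windows for 27025. The shares therefore compare unlike sets.

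Over time the carriers went in different directions in the genotypes. In Ctrl, 9 members were called lower at day 3 than at day 1 (24.3%, against 11.0% of all genes) and 4 higher (10.8%, against 25.0%), with a median of −0.002 where that of all genes was 0.12. In Fzd5KO, 23 were called higher (62.2%, against 34.4%) and 1 lower (2.7%, against 10.5%), with a median of 0.33 against 0.11. All 9 that fell in Ctrl were called higher in Fzd5KO, and Slc25a20 and Slc25a25 were called higher in both. The shares of all genes with such pairs of calls were not computed. The days did not overlap for 7 members that were higher (33.0% of all genes) and 11 that were lower (13.7%) in Ctrl, and for 24 higher (39.6%) and 1 lower (14.5%) in Fzd5KO. These comparisons share the day 1 and day 3 libraries with the genotype comparisons above. Other scalings gave 2 to 4 members higher and 13, 16 and 12 lower in Ctrl (quantile, median-of-ratios and rescaled). In Fzd5KO the same scalings gave 17, 18 and 16 members higher and 1 lower. Slc25a13 and Slc25a36, which fell in Ctrl, lost their Fzd5KO call under all of them, as did Slc25a25.

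The largest falls in Ctrl were those of Slc25a4 (−0.79 ± 0.09, adjusted p = 3.94e-05), Slc25a34 (−0.44 ± 0.08), Slc25a36 (−0.39 ± 0.05) and Slc25a15 (−0.32 ± 0.03). Slc25a20 rose by 0.52 ± 0.05 (adjusted p = 1.11e-05). Slc25a25, at 22.2, 22.6 and 19.3 TPM at day 1 and 26.4, 29.5 and 24.2 at day 3, and Slc25a39 were also called higher (0.31 ± 0.09 and 0.25 ± 0.07). The Slc25a25 call ended without replicate 3 of day 1 or replicate 1 or 2 of day 3 (adjusted p = 0.0501 to 0.0851). Quantile normalization (adjusted p = 0.103), median-of-ratios scaling (adjusted p = 0.145) and no filter on low values (adjusted p = 0.052) also ended it. The Slc25a39 call ended without replicate 2 or 3 of day 1 or replicate 1 or 2 of day 3 (adjusted p = 0.0565 to 0.0829). Median-of-ratios scaling (adjusted p = 0.21) and no filter on low values (adjusted p = 0.0553) also ended it. In Fzd5KO the largest rises were those of Slc25a34 (0.97 ± 0.08, adjusted p = 2.22e-06), Slc25a44 (0.93 ± 0.04), Slc25a4 (0.78 ± 0.09) and Slc25a22 (0.74 ± 0.08). The only fall, that of Slc25a47 (−0.48 ± 0.16, adjusted p = 0.0256), rested on single libraries: without Fzd5KO day 3 replicate 2, at 2.42 TPM, it was −0.27 (adjusted p = 0.0626), and it also lost its call without Fzd5KO day 1 replicate 1 (adjusted p = 0.052) or 3 (adjusted p = 0.0888).

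**Figure D4:**
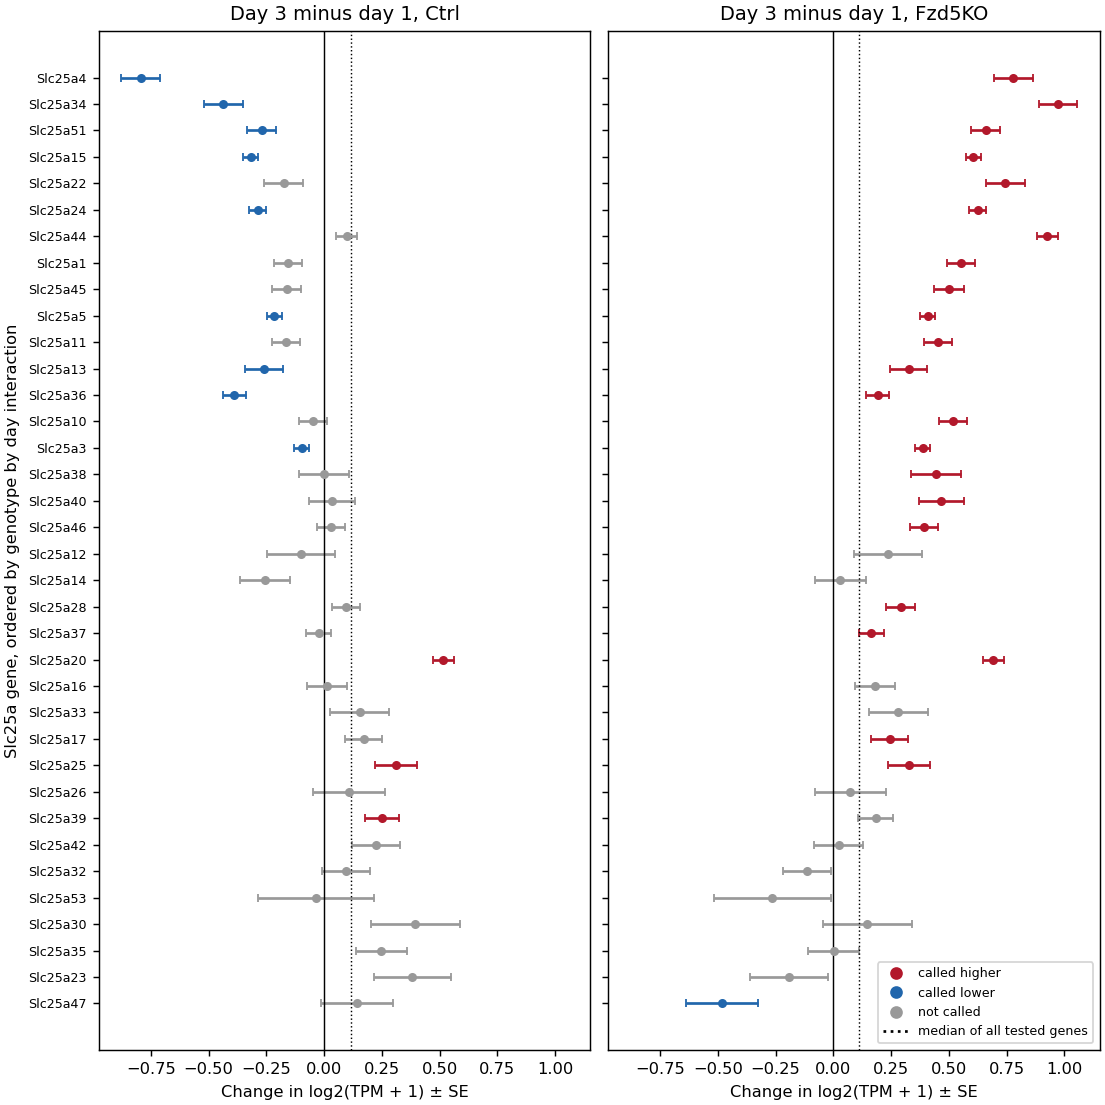
Points give the change in log2(TPM + 1) from day 1 to day 3 in Ctrl (left) and in Fzd5KO (right) for 36 genes, bars the SE, red and blue points the called genes and the dotted line the median of all tested genes. Most of the upper rows lie left of 0 in Ctrl and right of 0 in Fzd5KO, with Slc25a4 at −0.79 and 0.78. Slc25a44 lies right of 0 in both.

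The genotype by day interaction tests whether the knockout change differs between the days. That change was called higher at day 3 than at day 1 for 19 members (51.4%, against 25.3% of all genes) and lower for 2 (5.41%, against 19.1%). The smallest p-values were those of Slc25a15 (0.92 ± 0.04, adjusted p = 2.83e-08), Slc25a24 (0.91 ± 0.05, adjusted p = 1.11e-07), Slc25a5 (0.62 ± 0.04, adjusted p = 5.82e-07), Slc25a4 (1.57 ± 0.12, adjusted p = 1.1e-06) and Slc25a44 (0.83 ± 0.06, adjusted p = 1.13e-06). The changes of Slc25a35, Slc25a42 and Slc25a39, lower in Fzd5KO at day 3, were not called different between the days (adjusted p = 0.236, 0.303 and 0.635). Nor were those of Slc25a23 and Slc25a37, although both were called at day 3 and not at day 1. Of the 37 members, 7 were called lower at day 1 and higher at day 3, 2 lower on both days, 1 higher on both, and 11 in none of these 3 comparisons. Of those 7, only Slc25a4 kept its day 1 call under the 3 other scalings. The shares of all genes with such joint calls were not computed.

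Enzymes that work beside the carriers were counted from lists. Of all tested genes, 24.3% were called higher and 38.5% lower at day 3. Of the 6 enzymes of the malate-aspartate and glycerol phosphate shuttles, which pass reducing equivalents to mitochondria, 5 were called higher at day 3, among them Gpd1 (1.28), Got1 (1.24) and Gpd2 (1.31), and the mitochondrial Got2 was lower (−0.31). Of 8 genes of carnitine synthesis, uptake and use, 6 were higher and 0 lower, led by Bbox1, the last enzyme of carnitine synthesis (1.62), and the carnitine importer Slc22a5 (0.94). Of 12 enzymes that make or use citrate and its products, 8 were higher, among them Pck1 (1.73), Me1 (1.54), Idh1 (1.12) and Cs, citrate synthase (0.87). The other 4 were lower, among them Acly, which splits the citrate that Slc25a1 exports (−0.39), and Pck2 (−1.12).

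Of 11 citrulline and arginine enzymes 2 were called higher and 6 lower at day 3 (against 24.3% and 38.5% of all genes), and 3 were not called. Cps1 was at −0.93, Oat at −0.65 and Otc at −0.21. Of 13 genes of the import chain that inserts carriers into the inner membrane, 1 was higher and 7 lower, among them Timm9 (−0.77), Timm8a1 (−0.73) and Agk (−0.83). Of 9 heme enzymes 1 was higher (Alas1, which starts heme synthesis, 0.83) and 5 lower, among them Uros (−0.68). Of 13 iron-sulfur assembly genes 1 was higher and 8 lower, among them Hspa9 (−0.43) and Iscu (−0.33). Of 82 nuclear oxidative phosphorylation subunits 10 were higher (against 24.3% of all genes), among them Cycs, cytochrome c (0.81), and 34 lower (against 38.5%), among them the ATP synthase subunit gene Atp5g2 (−0.75). Their median was −0.08, and that of all genes −0.14. Of 11 other inner membrane transporters 4 were higher (among them Mcu, Micu2 and Letm1, which serve calcium and cation transport) and 3 lower (the pyruvate carrier subunits Mpc1 and Mpc2, and Sfxn2).

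At day 1, when 2.13% of all genes were called higher and 22.8% lower, 0 of 6 shuttle enzymes, 0 of 8 carnitine genes and 1 of 12 citrate enzymes (Pck1, 0.21) were higher. The 0 counts lie near the share of all genes. Lower at day 1 were 2 of 6 in the shuttle list, 1 of 8 in the carnitine list, 6 of 11 in the citrulline and arginine list and 8 of 12 in the citrate list. Over all genes, quantile normalization, median-of-ratios scaling and rescaled TPM gave 920, 911 and 1138 lower calls at day 1, against 3313. Higher calls numbered 851, 1277 and 701, against 309. The list counts were not repeated under those scalings.

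**Figure D5:**
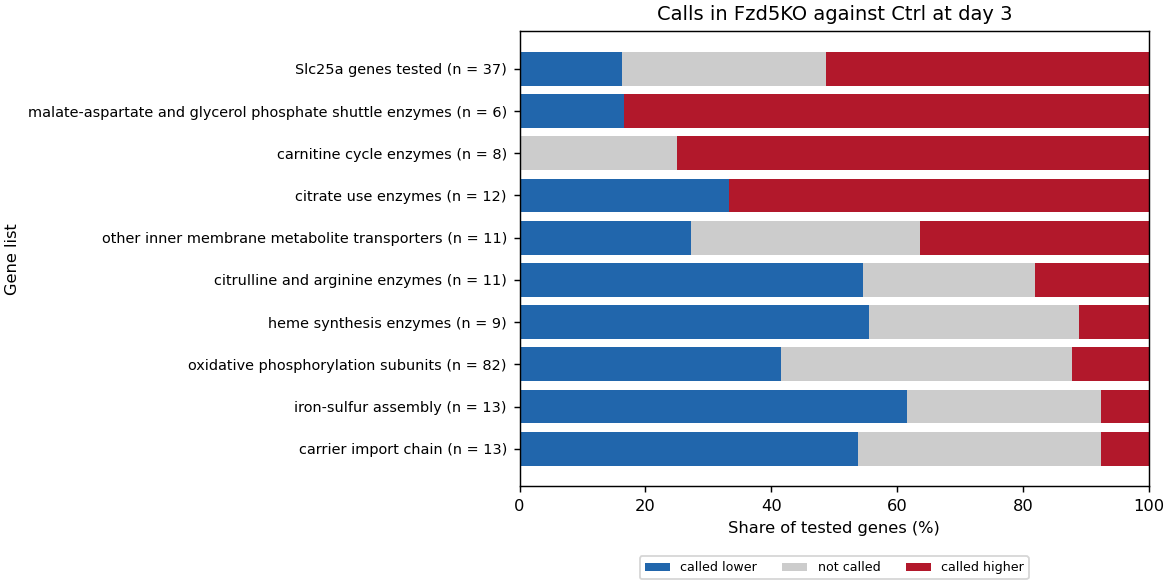
Bars give the share of tested genes in each list that was called higher (red), called lower (blue) or not called (grey) in Fzd5KO against Ctrl at day 3, with the number tested in brackets. The Slc25a genes have 19 of 37 higher, the shuttle enzymes 5 of 6, the carnitine genes 6 of 8 and the oxidative phosphorylation subunits 10 of 82. Of all tested genes, 24.3% were called higher.

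Markers of cell types also changed, some higher and others lower, and their part in the carrier changes was not tested. In bulk libraries, fewer cells of a type and less RNA per cell cannot be told apart. Of all tested genes, 24.3% were called higher and 38.5% lower at day 3, and 2.13% and 22.8% at day 1. At day 3, 11 of 12 enterocyte markers were called higher in Fzd5KO, with summed TPM of 19600 to 20703 in Ctrl and 42751 to 44248 in Fzd5KO, and 7 of 7 stem cell markers were lower (655 to 701 against 83.5 to 88.2). Goblet cell markers (7 of 7), Paneth cell markers (7 of 7), tuft cell markers (4 of 4; 35.1 to 39.6 against 7.54 to 7.90) and 6 of 8 enteroendocrine markers (479 to 499 against 159 to 163) were lower. Markers of T cells and intraepithelial lymphocytes were higher (9 of 9; 42.4 to 43.9 against 163 to 181), as were those of B and plasma cells (6 of 6; 23.5 to 30.9 against 92.6 to 117) and 5 of 6 of myeloid cells (9.56 to 13.2 against 24.2 to 26.9), and 5 of 5 erythroid markers were lower (201 to 228 against 54.4 to 69.5). At day 1, 7 of 7 stem cell markers (439 to 458 against 130 to 138) and 7 of 7 goblet cell markers were lower, while 3 of 12 enterocyte markers were higher and 6 lower (24130 to 25210 against 26383 to 27168). Also lower at day 1 were 4 of 7 Paneth cell markers (14828 to 15671 against 13700 to 14200), 4 of 9 of T cells and intraepithelial lymphocytes (171 to 190 against 111 to 131) and 3 of 5 erythroid markers (88.5 to 109 against 54.2 to 67.7). Marker calls were not repeated under the other scalings. No marker of these lists was at 0 in every library of a group at day 3 except Il25 of the tuft cell list, in Fzd5KO. The share of TPM from mt- genes was 8.37 to 9.70% in Ctrl and 7.03 to 7.79% in Fzd5KO at day 3, and 8.15 to 9.15% and 9.14 to 10.0% at day 1. The abundant small RNAs 7SL and 7SK held 22.9 to 25.7% of TPM in Ctrl and 26.2 to 27.2% in Fzd5KO at day 1, with no overlap, and 19.8 to 21.1% against 19.7 to 21.9% at day 3. Their part in the carrier changes was not tested.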

How the data were processed

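The authors deposited 1 table of TPM values with 12 columns, 1 for each library, and 0 columns of other samples. Per the labels' protocols, RNA was isolated on RNeasy columns and made into stranded total RNA libraries (TruSeq). Tools listed in the submitters' processing notes are STAR 2.7.3a, bcl2fastq 2.18 and RSEM (no version), with mm10 as the build. No source used here gives the annotation or the strand setting. TPM carries no depth, so no count model was used.

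Genes that reached 1 TPM in 3 or more libraries entered the fit as log2(TPM + 1) in limma 3.58.1 (R 4.3.3), with 1 mean per group, an intensity trend, 8 residual degrees of freedom and Benjamini-Hochberg adjustment over 14510 genes. The procedure was tested on simulated data. The members and gene lists were chosen with earlier results of these data known. Values in every library are given for the 8 largest called rises and falls of each genotype comparison, the 5 smallest p-values of the interaction, the 4 largest called changes per direction over time, the 6 most abundant members and 9 members chosen by role. Exceptions are Slc25a12, given by range, and Slc25a39, Slc25a45, Slc25a47 and Slc25a51, whose day 1 libraries are not listed. Other members are given by range or call. Some results of the rule are not reported here, and figures leave out the genes concerned. In each list 2 to 4 genes were named, as a rule by smallest p. Got2, Acly, Pck2, Otc, Letm1, Mpc1 and Mpc2 fall outside that rule and were chosen after their values were seen.

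Same-numbered replicates did not deviate together (r = −0.069 to 0.033), so the fit is unpaired. Alternatives were pseudocounts of 0.1 and 5, no filter, at least 5 TPM in 3 libraries, quantile normalization, median-of-ratios scaling, TPM rescaled after removal of mitochondrial genes, small RNA genes and the 20 genes with the highest TPM, no trend, array weights, a replicate block, only the compared libraries, and each library left out. Figures were drawn with matplotlib 3.10.9.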

Additional observations from a re-analysis of the deposited data

Results flagged for a closer look

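The knockout change differed between day 1 and day 3, by the genotype by day term of the limma fit, for 20 carriers described here. Each value is the day 3 change minus the day 1 change on the log2(TPM + 1) scale, and positive values mean that Fzd5KO stood higher against Ctrl at day 3 than at day 1.

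Among the ADP/ATP and phosphate carriers it was 1.57 for Slc25a4, 0.62 for Slc25a5 and 0.48 for Slc25a3. It was 0.91 for the ATP-Mg/phosphate carrier Slc25a24. The citrate, dicarboxylate and oxoglutarate carriers gave 0.71 (Slc25a1), 0.57 (Slc25a10) and 0.62 (Slc25a11), and the glutamate and aspartate carriers 0.92 (Slc25a22) and 0.59 (Slc25a13). The amino acid, glutathione and carnitine carriers gave 0.92 (Slc25a15), 0.83 (Slc25a44), 0.66 (Slc25a45), 0.45 (Slc25a38, adjusted p = 0.0347), 0.43 (Slc25a40, adjusted p = 0.0246), 0.18 (Slc25a20, adjusted p = 0.0484) and −0.63 (Slc25a47, adjusted p = 0.0383). Among the nucleotide and cofactor carriers it was 0.93 for Slc25a51 and 0.58 for Slc25a36, and among those of unsettled role 1.41 for Slc25a34 and 0.36 for Slc25a46.

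Slc25a47 and Slc25a20 lost this call with quantile normalization, and Slc25a20, Slc25a38 and Slc25a40 lost it with TPM rescaled without the most abundant genes. All 4 lost it with no filter on low values. Slc25a20 also lost it with a pseudocount of 0.1, without the variance trend, with array weights (as did Slc25a40) and with the replicate number as a block. The call also ended without any 1 of 5 libraries for Slc25a47 (replicates 1 and 3 of Fzd5KO day 1, 2 and 3 of Ctrl day 1, and 1 of Ctrl day 3) and without any 1 of 6 for Slc25a40 (1 and 3 of Fzd5KO day 1, 1 of Fzd5KO day 3, 3 of Ctrl day 1, and 1 and 3 of Ctrl day 3). For Slc25a20 and Slc25a38 it ended without any 1 of 8: replicates 2 and 3 of both Ctrl groups for each, with replicates 2 and 3 of Fzd5KO day 1 and 1 and 2 of Fzd5KO day 3 for Slc25a20, and 1 and 3 of Fzd5KO day 1 and 2 and 3 of Fzd5KO day 3 for Slc25a38. Leaving out single libraries left 16 to 20 members higher and 1 or 2 lower. Slc25a20 differs from the others in that it was called higher on both days.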

How the results depend on the processing

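The counts at day 3 (19 members higher, 6 lower) stayed within 1.5 times of these under every alternative run. At day 1, quantile normalization gave 4 higher and 3 lower, median-of-ratios scaling also gave 4 higher and 3 lower, and rescaled TPM gave 2 higher and 3 lower, against 1 and 10. In Ctrl over time, 2 members were called higher with no filter and with median-of-ratios scaling, against 4, and 16 lower with the latter, against 9. In Fzd5KO over time, 0 were lower with no filter or only the compared libraries (limma), against 1, Slc25a47. The interaction had 1 lower with no filter, against 2. Leaving out each library in turn gave 2 to 4 higher and 7 to 10 lower in Ctrl over time, 0 or 1 lower in Fzd5KO over time, 1 or 2 lower for the interaction, and 7 to 11 lower at day 1.

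At day 1 the direction turned for Slc25a15 with median-of-ratios scaling (0.015), Slc25a3 likewise (0.025), Slc25a5 under that scaling (0.032) and quantile normalization (0.040), Slc25a45 under both (0.059 and 0.018) and rescaled TPM (0.010), and Slc25a37 when single libraries were left out (range −0.008, without Ctrl day 1 replicate 1, to 0.089). These scalings move the median of all genes; the cause was not otherwise tested.

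Labels share replicate numbers but do not pair libraries. With the replicate number as a block, 1 member was higher and 11 lower at day 1 (9 of the 10 kept), 19 higher and 6 lower at day 3 (18 and 6 kept), and 19 higher and 2 lower for the interaction (18 and 2 kept). Without Ctrl day 1 replicate 1, 1 member was higher and 10 lower at day 1. TPM hides depth, so the precision of members near 1 TPM, such as Slc25a23, Slc25a33 and Slc25a53, is unknown.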
